A study of Bos grunniens with 18 samples.

Results

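Corpus-only m6A peaks are the peaks of the candidate list of the epididymal body (corpus) in which no listed adenosine position also stood in the list of the head (caput) or of the tail (cauda). Of the 13798 peaks of the corpus list, 1779 (12.9%) were selected on this measured presence and absence, out of 42522 peaks in the lists of all 3 regions. The same rule gave 2290 caput-only peaks (15.7% of the caput list) and 2107 cauda-only peaks (14.9% of the cauda list). The tissue came from healthy, untreated male yaks (Bos grunniens) aged 4 years, 6 animals in the study, and the 18 libraries comprised 3 antibody-enriched (RIP) and 3 input libraries per region. No label ties a library to an animal. Lists and comparison tables carry 1 value per site and none per library, which leaves every value here without a replicate error and with unknown depth. The labelled tissue could not be checked by expression, since no expression value was used here.

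N6-methyladenosine (m6A) is a methyl mark that a methyltransferase complex with METTL3 at its core places on adenosines of messenger RNA, mostly in a short preferred sequence, and that reader proteins of the YTH family bind. The mark influences splicing, translation and decay of the transcript and is often dense near stop codons. Sperm gain motility and the ability to fertilise on their way through the epididymal duct, whose body lies between the absorptive and secretory head and the storing tail.

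The rule used the presence of positions in the lists, so absence from the caput and cauda is what chose these peaks and is not a result. Among the other corpus peaks, 9333 shared every position with another region and 2686 shared some. Just outside the rule stood 260 peaks with at least 2 positions of which a single one was shared, and the lowest shared portion of any peak outside it was 9.09% of its positions. A corpus peak whose span overlaps no peak of the other regions meets the rule by that alone, as 1640 peaks of the list did. Overlaps and distances of corpus-only peaks therefore describe what the rule selects, and those of caput-only and cauda-only peaks were not counted. The spans of 139 corpus-only peaks (7.81%) overlapped a caput or cauda peak by at least 1 base, introns included, and 18 did so by at least 50% of both spans. The nearest caput or cauda candidate lay a median of 8662 bases away, and for 300 peaks (16.9%) it lay within 500 bases.

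Corpus-only peaks were small. They held 6661 candidate positions, with a median of 3 per peak against 6 in the other corpus peaks, and 303 of them (17.0%) held a single candidate against 6.76% of the others. Peaks with 10 or more candidates made up 2.98% of the corpus-only and 25.4% of the other corpus peaks. A peak with few positions meets the rule more easily, so these numbers are a description of what the rule selects. Caput-only and cauda-only peaks also had a median of 3 candidates. Where the exact span stood in a comparison table, which gives the summed length without introns, the median length was 193 bases for 627 corpus-only peaks and 299 bases for 6131 other corpus peaks. The density of candidates differed little, at medians of 1.61 and 1.78 per 100 bases, and 59.6% and 58.6% of these peaks contained an intron.

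The authors' combined prediction score rates each candidate adenosine, and scores from 0.557 upward are classed as m6A sites, from 0.676 upward with very high confidence. Of the 6661 positions of corpus-only peaks, 1220 were classed as m6A sites (18.3%, 95% Wilson interval 17.4 to 19.3). The share was 19.4% (19.1 to 19.6) in the other corpus peaks, 17.4% (16.6 to 18.1) in caput-only and 17.3% (16.5 to 18.1) in cauda-only peaks. The very high class held 89 positions of corpus-only peaks (1.34%, 1.09 to 1.64) against 2.19% (2.10 to 2.28) in the other corpus peaks. Intervals cover counting error alone, and positions of 1 peak are not independent. Per peak, 776 corpus-only peaks (43.6%, 41.3 to 45.9) had at least 1 classed site against 60.9% (60.02 to 61.76) of the others, so 1003 held none.

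At the same number of candidates the shares were close. With 1 candidate, 11.6% of corpus-only and 10.8% of other corpus peaks had a classed site, with 3 to 4 candidates 44.1% and 43.3%, with 5 to 9 candidates 70.2% and 68.3%, and with 10 or more 90.6% and 92.9%. The intervals of both groups overlapped at every candidate number, the widest gap being that at 2 candidates, 28.7% (24.2 to 33.5) against 24.0% (21.6 to 26.6). No test of these differences was run, since candidates and peaks are not replicates.

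**Figure D1:**
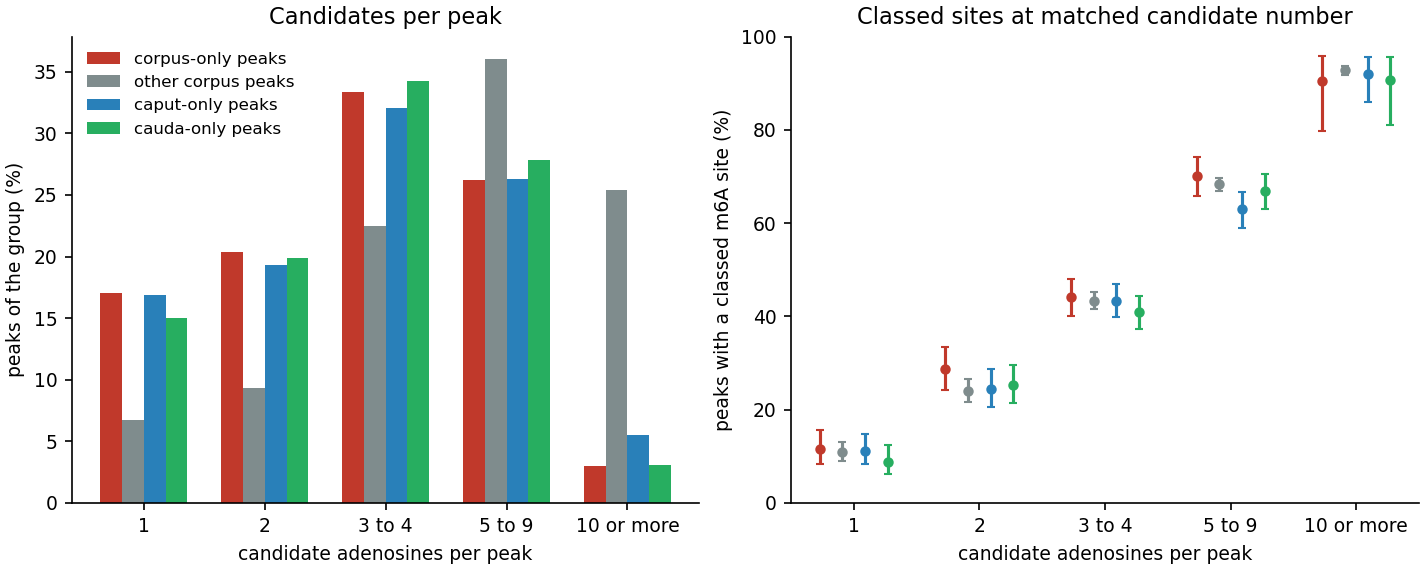
Left, share of peaks (%) by number of candidate adenosines in the 4 groups of peaks; right, share of peaks (%) with at least 1 candidate classed as an m6A site at each candidate number, with 95% Wilson intervals. Corpus-only peaks have few candidates (17.0% with a single one), while at a given number the classed share is close to that of the other corpus peaks (44.1% and 43.3% at 3 to 4 candidates).

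Of the 10 corpus-only peaks with the highest-scoring candidates, those described here had best scores from 0.745 to 0.831. In BRWD3, a bromodomain protein, the peak on chromosome X from 78064211 to 78064360 held the most candidates of the very high class among these. Its 4 candidates at 78064279, 78064295, 78064302 and 78064316 scored 0.746, 0.736, 0.724 and 0.831, all of the very high class, and the fifth scored 0.471. A cauda candidate lay 238 bases from the BRWD3 peak. In SPAST, which encodes the microtubule-severing protein spastin, the peak on chromosome 9 from 33704626 to 33704871 held 6 candidates, of which those at 33704686 (0.755) and 33704799 (0.727) were classed.

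The peak of IGF1R, the receptor of insulin-like growth factor 1, on chromosome 17 from 7019793 to 7021935, held 8 candidates, 4 of them classed and the best at 7019908 (score 0.769). IGF1R carried 4 assigned peaks in the corpus list, 3 in the caput list and 1 in the cauda list. USP21, a deubiquitinating enzyme, and ZNF316, a zinc finger gene, each had a peak with a single candidate, with scores of 0.784 and 0.747. For USP21 a cauda candidate lay 37 bases away, so the listing there separates close neighbours. HERC1, a very large ubiquitin ligase, had its best score of 0.781 at 32701872 on chromosome 11. ICAM1, the adhesion molecule that leukocytes bind, had a best score of 0.750 among 12 candidates, and BBX, a high mobility group box factor, 0.745 among 8. A further peak, on chromosome 26 from 15936729 to 15937819, had a best score of 0.773 and fell in no gene that could be assigned.

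**Figure D2:**
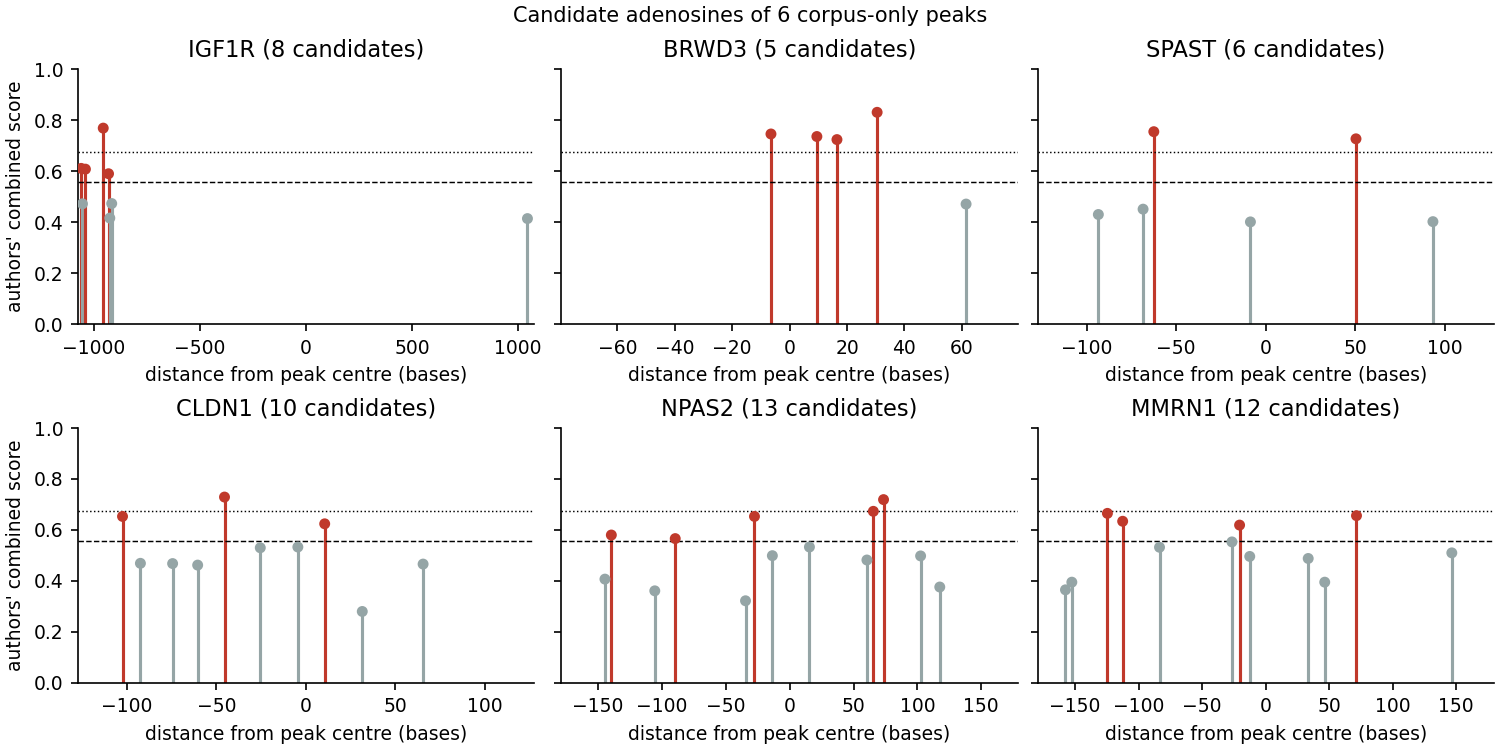
Combined score (no unit) of each candidate adenosine against its distance from the peak centre in bases, for corpus-only peaks of IGF1R, BRWD3, SPAST, CLDN1, NPAS2 and MMRN1; red marks candidates classed as m6A sites, the dashed line the lowest classed score (0.557) and the dotted line that of the very high class (0.676). In BRWD3 4 of 5 candidates exceed the dotted line, with the best at 0.831.

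Through the spans of the comparison tables, 1129 corpus-only peaks (63.5%, 61.2 to 65.7) could be assigned to 1 gene, 1010 genes in all, while 645 fell in no span of these tables and 5 in several genes alike. The assigned portion was 95.2% in the other corpus peaks and 60.7% and 61.5% in caput-only and cauda-only peaks. Most of the assigned peaks were additional peaks of genes listed elsewhere too. For 816 of the 1129 (72.3%, 69.6 to 74.8) the same gene held an assigned caput or cauda peak, and for 716 it held another corpus peak with shared positions. In caput-only peaks the former portion was 57.8% and in cauda-only peaks 64.6%. Corpus-only peaks were spread thinly, with 903 genes holding 1, 98 holding 2 and 9 holding 3 or more. Genes with a corpus-only peak had a median of 2 assigned corpus peaks and the other genes a median of 1. A gene with more corpus peaks holds a corpus-only one more easily, so these medians describe what the rule selects.

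In the 1215 genes with at least 3 assigned corpus peaks, the peaks were ordered from 5′ to 3′ by the gene's strand. Of the 421 corpus-only peaks in them, 34.2% (29.8 to 38.9) were the most 5′ peak of their gene and 21.9% (18.2 to 26.1) the most 3′ peak. The other 4140 corpus peaks had 25.9% (24.6 to 27.2) and 27.1% (25.8 to 28.5) at these places. Corpus-only peaks thus stood more often at the 5′ end of the set, with intervals that did not overlap, and less often at the 3′ end, with intervals that did. Peaks of 1 gene are not independent and no test was run. The groups were not matched by candidate number or by the number of corpus peaks per gene, on which the share at an end place depends. Places of caput-only and cauda-only peaks were not counted. Whether the place is particular to corpus-only peaks was therefore not tested. Along the chromosomes, corpus-only peaks made up from 7.94% of the corpus peaks (chromosome Y, 5 of 63, 3.44 to 17.3) to 18.2% (chromosome 6, 14.8 to 22.3). The intervals of these extremes overlapped, that of chromosome Y resting on 63 peaks. Those of chromosomes 6 and 1 (13.1 to 18.9) lay above the 12.9% of the whole corpus list. The interval of chromosome 6 did not overlap those of chromosomes 25 (6.81 to 13.9) and 17 (8.17 to 14.0), among others. Chromosome 6 was picked as the highest of all, and no test was run.

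**Figure D3:**
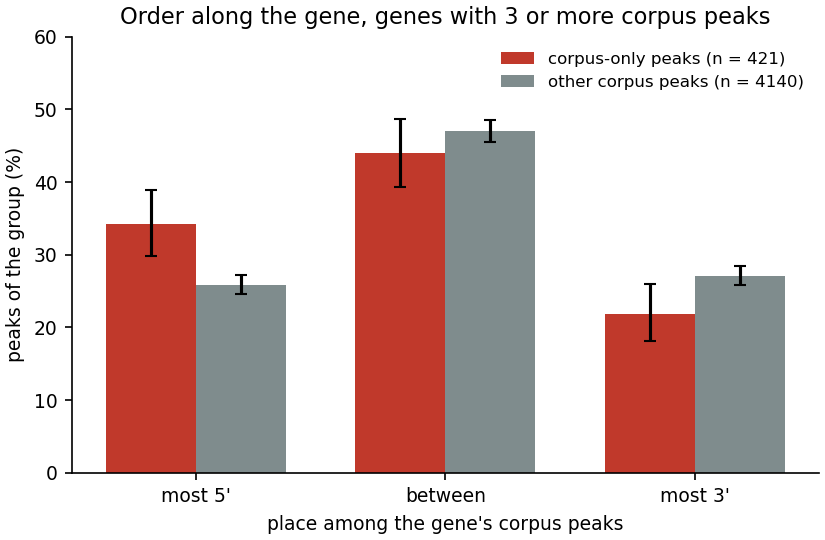
Share of peaks (%) that are the most 5′, an inner or the most 3′ peak of their gene, for corpus-only (n = 421) and other corpus peaks (n = 4140) of genes with 3 or more corpus peaks; bars with 95% Wilson intervals. The most 5′ place holds 34.2% of corpus-only and 25.9% of other corpus peaks.

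Macf1 had the most corpus-only peaks of any gene with a symbol, 5 among 17 corpus peaks, 11 caput and 9 cauda peaks, and the deposited gene table pairs this symbol with the description dystonin, a related giant cytoskeletal linker. DYNC1H1, the heavy chain of cytoplasmic dynein, had 4 among 8 corpus peaks, and GRK5, a kinase of G protein-coupled receptors, had 3 among 4. NRG3, a neuregulin ligand of ERBB4, and NDST4, an enzyme of heparan sulfate synthesis, had 3 each and no assigned peak in another list. CLSTN1, a calsyntenin, also had 3 and no assigned peak elsewhere. Between the first and last site of CLSTN1, however, lay 19 caput or cauda candidates, the nearest 323 bases from a corpus-only peak. The GRK5 peaks held 17 candidates of which 0 were classed, with a best score of 0.542, and those of DYNC1H1 held 12 of which 1 was classed.

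In 281 of the 1010 genes no caput or cauda peak was assigned to the gene. In 276 of these no caput or cauda candidate lay between the gene's first and last site. First and last sites came from the comparison spans that also assign peaks, so the second count largely repeats the first. Candidates could lie just outside them, with a caput candidate 239 bases from a corpus-only peak in Ift140 and 293 bases in TYW5. Of the 281 genes, the 8 with a symbol, without other corpus peaks and with most candidates were KNSTRN (34 candidates in 2 peaks), NUP50 (31 in 1), KIZ (29 in 2), TRIM13 (20 in 1), NPAS2 (16 in 2), THSD7A (16 in 2), PPP1R7 (14 in 2) and MEA1 (13 in 1). KNSTRN and KIZ serve the mitotic spindle and the centrosome, NUP50 the nuclear pore, and TRIM13 is a ubiquitin ligase of the endoplasmic reticulum. NPAS2 is a clock transcription factor related to CLOCK, which pairs with BMAL1. Its larger peak, on chromosome 9 from 23808460 to 23808807, held 13 candidates of which 5 were classed, with the best at 23808707 (0.719) and 23808699 (0.673). The KNSTRN peaks, on chromosome 1 from 114327221 to 114327608 and from 114327705 to 114328383, had best scores of 0.653 and 0.676. The THSD7A peaks held 1 classed site among 16 candidates. Among these 8 genes MEA1 lay nearest to another region's list, with a caput candidate 877 bases away. Sites of cauda over caput nonetheless held positions of the peaks of KNSTRN, NUP50, KIZ and TRIM13. Their log2 folds were -0.02 in KNSTRN, 0.20 and -0.23 in NUP50, 0.07 in KIZ and 0.16 in TRIM13, per the authors' deposited table. None of these was called at the authors' adjusted p under 0.05. NPAS2, THSD7A, PPP1R7 and MEA1 had no such site.

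Large corpus-only peaks in genes with a symbol also included MAPRE2, a protein of growing microtubule ends (33 candidates, 12 classed, on chromosome 21 from 16818815 to 16898368), and MMRN1, a secreted multimerin (25 candidates, 3 classed). SLX4, a scaffold of DNA repair nucleases, held 21 candidates and 5 classed sites, and RGL1, an exchange factor of Ral, held 14 and 5 with a best score of 0.716. MX2, an interferon-induced dynamin-like GTPase whose identifier the deposited table describes as MX dynamin like GTPase 1, held 16 candidates and 6 classed sites.

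The comparison tables give the authors' fold and p-value for sites called over a pair of regions, and their positions allow corpus-only peaks to be found in them. Since the rule used lists from the same libraries, folds against the corpus are a description of what was selected. Positions of 801 corpus-only peaks lay in 802 sites of the comparison of corpus over caput, and positions of 774 in 775 sites of cauda over corpus. Over these sites the median log2 fold in the authors' deposited table was 0.32 for corpus over caput (quartiles 0.11 and 0.55) and -0.31 for cauda over corpus (quartiles -0.56 and -0.12). Over all sites the medians in the authors' deposited table were -0.02 and 0.046. Of the sites with corpus-only positions, 85.9% lay above 0 in the former table and 14.7% in the latter, and at least a 2-fold difference toward the corpus was reached by 6.36% and 7.35%, beside 1.08% and 0.948% of all sites. The opposite direction was reached by 0.374% and 0.129%. These directions hold with the first-named region read as the numerator, which the tables' headers do not state.

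**Figure D4:**
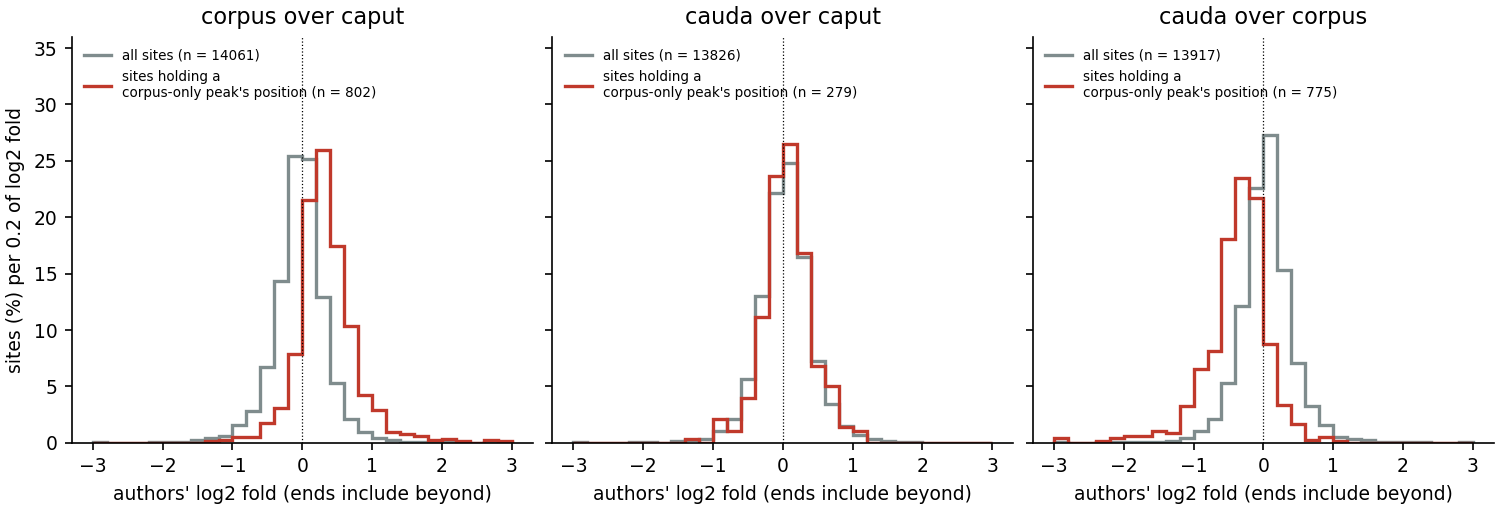
Share of sites (%) by the authors' log2 fold in the 3 comparisons, for all sites (grey) and for sites that hold a position of a corpus-only peak (red); folds beyond the axis are counted in its end bins. The red curve lies toward the corpus in both comparisons that include it (medians 0.32 and -0.31) and near the grey one in cauda over caput (0.083 against 0.043).

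Few of these differences passed the authors' test. With the authors' deposited table read at an adjusted p under 0.05, 33 of the 802 sites were called for corpus over caput, or 4.11%, beside 2.98% of all 14061 sites (419), and 31 were higher and 2 lower in the corpus, beside 1.12% and 1.86% of all sites. For cauda over corpus 18 of 775 were called, or 2.32%, beside 1.96% of all 13917 sites, and all 18 were lower in the cauda, beside 0.719% of all sites lower and 1.24% higher. Nothing is read from these shares, since the rule used the contrast. At an unadjusted p under 0.05, 174 and 172 sites were called, beside 16.4% of all sites in either table. Of the 174, 166 were higher and 8 lower in the corpus, beside 7.21% and 9.24% of all sites, and of the 172, 165 were lower and 7 higher in the cauda, beside 6.68% and 9.71%. Positions of 276 corpus-only peaks also lay in 279 sites of cauda over caput, although neither of those lists holds them. Of these 4 (1.43%) passed an adjusted p under 0.05, all higher in the cauda, beside 2.27% of all sites, 1.41% higher and 0.861% lower. At an unadjusted p under 0.05, 38 were called, 30 higher and 8 lower, beside 17.2%, 10.5% and 6.68% of all sites. The 4 sites at an adjusted p under 0.05 were those of Pogz (log2 fold 0.66), the ubiquitin ligase WWP1 (0.55), the thyroid hormone receptor THRA (0.11) and the proteasome subunit PSMC5 (0.10) per the authors' deposited table. The Pogz site also held 11 candidate positions of the caput or cauda lists, and without sites that held such positions 3 of 258 were called.

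In 4 genes, chosen after their values were seen, corpus-only peaks lay in sites called against both other regions. SLC16A1, the monocarboxylate transporter MCT1 that moves lactate and pyruvate across the membrane, had the lowest adjusted p among sites toward the corpus. Its peak on chromosome 3 from 42319137 to 42321910, minus strand, had log2 folds of 0.96 over the caput (adjusted p = 0.000282) and -1 for cauda over corpus (adjusted p = 3.02e-06), per the authors' deposited table. Its neighbour from 42322306 to 42322604 had 1.5 (adjusted p = 0.001) and -1.72 (adjusted p = 7.76e-05), per the authors' deposited table. The SLC16A1 peaks held 11 and 3 candidates, of which 1, at 42321900 with a score of 0.558, was classed. Near 42452555 to 42453249 the gene carried further peaks in all 3 lists.

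STAT3, a transcription factor of cytokine signalling, had a single assigned peak, on chromosome 19 from 23631154 to 23632624. Between the first and last site of STAT3, however, lay 4 caput or cauda candidates, with a cauda candidate 297 bases from the peak. Per the authors' deposited table, sites over it had log2 folds of 1.68 (corpus over caput, adjusted p = 0.0331) and -0.47 (cauda over corpus, adjusted p = 0.038). All 4 STAT3 candidates were unclassed, with a best score of 0.518. MEDAG, a gene of fat cell differentiation, had log2 folds of 0.86 (adjusted p = 0.0126) and -0.91 (adjusted p = 0.0427) per the authors' deposited table, and 0 of its 3 candidates there were classed. MMRN1 was mixed. Its peak from 91002902 to 91003251 on chromosome 6 had a log2 fold of 0.51 over the caput (adjusted p = 0.00331), and the site from 91003401 to 91004149 had -0.09 (adjusted p = 4.9e-05) per the authors' deposited table. For cauda over corpus the site from 91003401 to 91024385 had -0.84 (adjusted p = 5.5e-05) and that from 91002502 to 91003251 had 0.46 (adjusted p = 0.878) per the authors' deposited table. The p and the fold did not go together at the MMRN1 site with a log2 fold of -0.09, and 3 of the 33 called sites for corpus over caput had an absolute log2 fold under 0.2.

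Further sites called against 1 region included those of the purine enzyme XDH (0.91, adjusted p = 0.00891), SGMS2, a sphingomyelin synthase (0.78, adjusted p = 0.038), and TRIM13 (0.97, adjusted p = 0.0363, and 0.52, adjusted p = 0.0389) for corpus over caput in the authors' deposited table. For cauda over corpus they included CDK17, a cyclin-dependent kinase (-1.28, adjusted p = 0.00912), MXRA8 (-1.17, adjusted p = 0.00977) and SMAD2, a signal carrier of TGF-beta receptors (-0.84, adjusted p = 0.01), in the authors' deposited table. For SMAD2 the fold over the caput was larger, 2.11, but did not pass (adjusted p = 0.0776, the authors' deposited table). Of the 2 called sites toward the caput, that of MMRN1 is given above and the other lay in Yipf2, a Golgi membrane protein, whose peak is listed in the corpus alone while its site had a log2 fold of -0.90 for corpus over caput (adjusted p = 0.0447) and of -0.87 for cauda over caput (adjusted p = 0.131) per the authors' deposited table.

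The largest folds at an unadjusted p under 0.05 were mostly not called. For corpus over caput they were those of TXN (3.95, adjusted p = 0.139), NRG3 (2.75, adjusted p = 0.0138), the sulfate transporter SLC26A2 (2.67, adjusted p = 0.218), ATAD1 (2.38, adjusted p = 0.276) and SMAD2 in the authors' deposited table. The lowest were PCDHGA6 (-1.01, adjusted p = 0.243), Yipf2, OR4D9 (-0.34, adjusted p = 0.109), ZNF574 (-0.34, adjusted p = 0.23) and VWC2 (-0.23, adjusted p = 0.325) per the authors' deposited table. Those of PCDHGA6 and ZNF574 each held 2 candidate positions of the caput or cauda lists. For cauda over corpus the most negative were COG2, a Golgi tether subunit (-3.06, adjusted p = 0.0501), RBBP8NL (-2.93, adjusted p = 0.0049), Ubr4, a ubiquitin ligase (-2.37, adjusted p = 0.00741), the spindle protein HAUS7 (-2.08, adjusted p = 0.0141) and ATAD1 (-2.02, adjusted p = 0.168) per the authors' deposited table. The most positive were AADACL3 (1.15, adjusted p = 0.324), the endotoxin coreceptor CD14 (0.61, adjusted p = 0.185), Pogz (0.41, adjusted p = 0.204), ZNF518B (0.40, adjusted p = 0.349) and Tubb4b (0.10, adjusted p = 0.364) per the authors' deposited table. The sites of Pogz and ZNF518B also held 11 and 15 candidate positions of the caput or cauda lists, so these folds are of sites shared with other peaks. For cauda over caput, where the corpus takes no part, the folds of such sites ran from -0.87 in Yipf2, -0.74 in ARL6IP5, -0.67 in ZMIZ1, -0.60 in THAP1 and -0.55 in SLX4 to 0.69 in KLHL24, 0.75 in CYP2J2, 0.84 in FOSB, 0.87 in TNFSF10 and 0.89 in GPKOW in the authors' deposited table. The KLHL24 site held 1 candidate position of the caput or cauda lists.

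Among the peaks with the highest scores or most candidates, some lay in called sites and others did not. In the authors' deposited table MMRN1 and TRIM13, given above, and MX2 (0.41 for corpus over caput, adjusted p = 0.0363) had called sites. In the authors' deposited table the BRWD3 site had a log2 fold of 0.62 for corpus over caput (adjusted p = 0.89). A slightly longer BRWD3 site had 0.24 for cauda over corpus (adjusted p = 0.991), which is toward the cauda, and 0.55 for cauda over caput (adjusted p = 0.802), per the authors' deposited table. The IGF1R site had 0.43 for corpus over caput (adjusted p = 0.239, the authors' deposited table). For SPAST the fold of cauda over corpus was -0.45 (adjusted p = 0.692, the authors' deposited table). KNSTRN had log2 folds of 0.18 and 0.40 for corpus over caput (adjusted p = 0.679 and 0.19), and a single site over both of its peaks had -0.02 for cauda over caput in the authors' deposited table. The CLSTN1 site from 40842090 had 0.063 for corpus over caput and 0.06 for cauda over corpus in the authors' deposited table.

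Corpus-only peaks were then counted in 28 gene lists. Over all genes with a symbol, 1119 of 12467 assigned corpus peaks (8.98%) were corpus-only, in 1002 of 7218 genes (13.9%). Only peaks assigned to a gene enter these counts, 63.5% of the corpus-only and 95.2% of the other corpus peaks. The 8.98% therefore lies below the 12.9% over the whole corpus list. Among regulators of steroid signalling 6 of 39 peaks (15.4%) were, in 5 of 9 genes. Among these were the coactivators NCOA1, NCOA2 and NCOA3 and the corepressor NCOR1, which dock on nuclear receptors. Genes of this list had a median of 4 corpus peaks against 1 over all genes. None of the 6 peaks held a classed site, the best score being 0.500 in NCOA1. In the authors' deposited table the sites of NCOR1 had a log2 fold of 1.25 for corpus over caput (adjusted p = 0.279) and NCOA3 one of -1.14 for cauda over corpus (adjusted p = 0.344).

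Among fibroblast and matrix genes 6 of 35 peaks (17.1%) were corpus-only, in FBN1, LAMA2, COL5A1, PDGFRA and PDGFRB, with a best score of 0.621 in FBN1, the fibrillin of elastic microfibrils. Of 33 peaks of junction genes 4 (12.1%) were, among them those of CLDN1, Ctnnd1 and GJA1. The CLDN1 peak, on chromosome 1 from 83681186 to 83681431, held 10 candidates, of which those at 83681206 (0.653), 83681263 (0.729) and 83681319 (0.624) were classed. Claudin 1 is a membrane protein of tight junctions, and its gene had no assigned peak in another list, with the nearest caput candidate 303622 bases away. Its site had a log2 fold of 0.089 for corpus over caput (adjusted p = 0.218, the authors' deposited table). Antioxidant genes had 3 of 10 peaks (30.0%), in KEAP1, the sensor of oxidative stress, TXN and GSR. The Wilson interval of that share lay above the 8.98% of all genes, but it rests on 10 peaks and was the highest share among 28 lists. Growth factor and MAP kinase genes had 6 of 43 (14.0%), in IGF1R, DUSP6, ROS1, FGF7 and MET. DUSP6, a phosphatase of ERK, had 3 classed sites among 6 candidates.

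In the WNT list 4 of 32 peaks (12.5%) were corpus-only, in the receptors LRP6, FZD2 and FZD4 and the antagonist SFRP1. Basal cell genes had 2 of 10 (NGFR and COL17A1) and ion and water transport genes 2 of 9 (ATP1B1 and Slc26a3). Chromatin remodelers had 7 of 74 (9.46%), in EP400, Chd6, ARID2, Pbrm1 and Smarcc1, and histone methyltransferases and demethylases 4 of 101 (3.96%), in KDM5B, DOT1L, Nsd3 and KMT2D. HOX genes had 3 of 27 (HOXA4, HOXD4 and Hoxc8), of which Hoxc8 had 3 classed sites among 5 candidates. The Hippo list had 3 of 35 (LATS1, MOB1A and TEAD2), the PI3K list 2 of 18 (Rheb and PIK3CA), the TGF-beta list 2 of 35 (SMAD2 and SMAD7) and the NOTCH list 2 of 30, both in MAML2. Multiciliated cell genes had 1 of 5 (CCDC40), heat shock genes 1 of 26 (HSPA6, whose near-identical relatives can share reads) and autophagy genes 1 of 12 (TFEB).

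Genes of the m6A machinery were counted in the same way, beside the 8.98% over all genes. Among the writers 1 of 21 peaks (4.76%) was corpus-only, in METTL5, which methylates ribosomal RNA, with 2 unclassed candidates. Among the readers 2 of 21 (9.52%) were. The peak of YTHDC2, a helicase that binds m6A, on chromosome 11 from 23073143 to 23079455, had 2 classed sites among 4 candidates and a best score of 0.697, and that of FXR2 had 3 unclassed candidates. The erasers had 0 of 3. In 8 of the 28 lists no peak was corpus-only. Among them were smooth muscle with 0 of 21 peaks (a share of up to 14.3%), endothelium with 0 of 18 (up to 16.7%) and macrophages and lymphocytes with 0 of 12 (up to 25%). These upper limits are 3 divided by the number of peaks, not ends of Wilson intervals. Clear and narrow cell genes (0 of 7), beta-defensins (0 of 6), epididymal secretory proteins (0 of 3) and sperm and spermatid genes (0 of 2) had too few corpus peaks to be read.

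**Figure D5:**
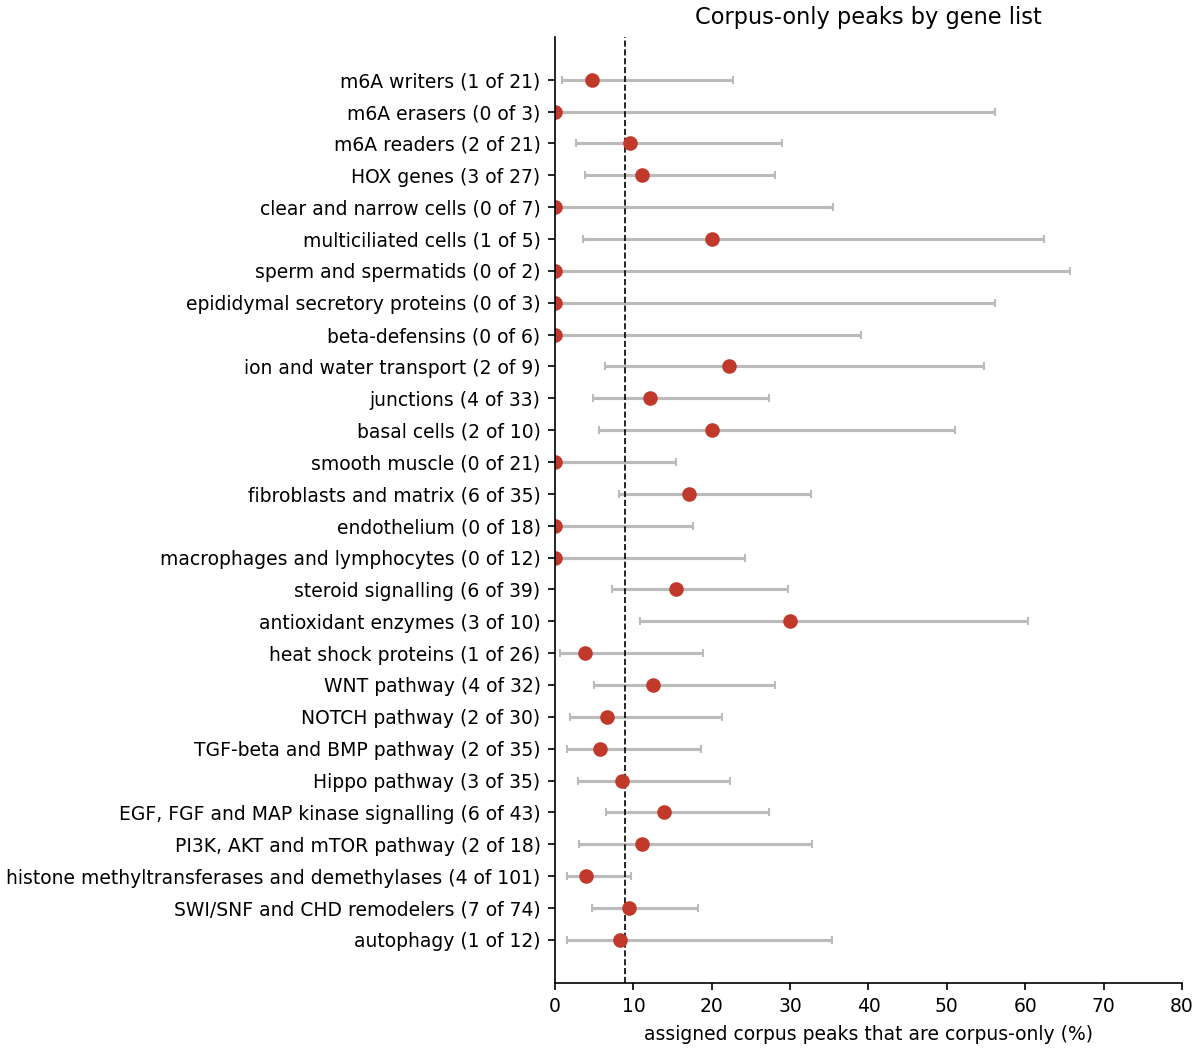
Share (%) of the assigned corpus peaks of each gene list that are corpus-only, with 95% Wilson intervals and the counts in brackets; the dashed line marks all genes with a symbol (8.98%). Steroid signalling (6 of 39) and fibroblast and matrix genes (6 of 35) lie above the line, histone methyltransferases and demethylases (4 of 101) below it. The intervals of these 3 lists include the line. That of antioxidant genes (3 of 10) lies above the line. Intervals are wide for lists with few peaks.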

How the data were processed

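Candidate lists (1 per region) and tables of pairwise comparisons were used as deposited. Polyadenylated RNA was fragmented, precipitated with an m6A antibody and sequenced from both ends, per the labels' protocols. The submitters' processing notes name deepTools, HISAT2 and Trimmomatic. Not given in the sources used here are the peak caller, site predictor, differential test and genome build. Per the file headers, a candidate carries a prediction score and a class, and a comparison site a p-value, its adjusted form, a ratio (fold) and its log2 value. The deposited headers do not name the numerator of a fold. It was read as the first-named region, after the order in the deposited tables' names. Under this reading sites with corpus-only positions lay toward the corpus, which is not an independent check of it. Whether folds are relative to input is not given, so methylation and transcript abundance cannot be told apart.

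Each position was counted once per peak with its highest combined score. A position was assigned to genes through the spans of comparison sites holding it (intervaltree 3.1.0), and a peak to the gene of most of its positions. Symbols came from the deposited expression table, whose 9 value columns match no label and were not used. Coordinates count from 1. Spans include introns, which the lists do not mark. Shares have 95% Wilson intervals (statsmodels 0.14.6). No test was run, and calls are the authors' at p under 0.05. Named peaks are the 10 with the best scores, the 10 with most candidates in genes with a symbol, those of the 6 genes with most corpus-only peaks, the 5 highest and lowest folds per comparison at an unadjusted p under 0.05, the 8 genes listed only through them with most candidates, and those in 28 gene lists (563 entries). Some of these are not reported here. Others were chosen after their values were seen. The peaks and lists were chosen with earlier results of these data known. Sequences were not analysed here, since no genome of this build was used. The selection script was checked on copies of the corpus list from which chosen peaks had been removed, which shows only that it follows the rule.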

Additional observations from a re-analysis of the deposited data

How the results depend on the processing

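With corpus-only defined by no span overlap of 1 base there were 1640 peaks, and by no reciprocal overlap of 50% there were 3833. Requiring 3 or more candidates left 1113, of which 57.2% had a classed site. Counting only the high and very high classes, the classed share of positions was 6.64% and that of peaks 18.9%. At an unadjusted p in the authors' deposited tables, 174 sites with corpus-only positions (21.7%) were called for corpus over caput. For cauda over corpus 172 (22.2%) were called and for cauda over caput 38 (13.6%). The shares over all sites were 16.4%, 16.4% and 17.2%. Alternatives on exact spans and gene extents were chosen after seeing the data. Restricted to sites with exactly the span of a corpus-only peak, 14 of 407 were called for corpus over caput (3.44%), 12 of 358 for cauda over corpus (3.35%) and 1 of 76 for cauda over caput (1.32%), with fewer sites tested than the 802, 775 and 279. The shares over all sites were 2.98%, 1.96% and 2.27%. Nothing is read from the calls against the corpus, since the rule used that contrast. At the exact spans the median log2 fold was 0.34 for corpus over caput and -0.35 for cauda over corpus. Both medians kept their sign without sites with introns and without sites that also held positions of another region. Leaving out a p listed as 0, run for corpus over caput, removed 0 sites. By gene extent, 1271 peaks were assigned. No paired analysis was possible because the tables carry no values per library, and for the same reason no replicate could be left out.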
